A study of Mus musculus with 12 samples.

Results

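The 10 genes described here belong to the unfolded protein response and the integrated stress response: Atf6, Xbp1, Hspa5, Pdia4, Herpud1, Atf4, Ddit3, Atf3, Trib3 and Asns. They were chosen by name from the 22053 rows of the deposited expression table, each matched 1 row, and all 10 were among the 13148 rows tested. Whole kidneys of 12 C57BL/6 mice, 4 in each of 3 groups, were sequenced for mRNA with 1 library per mouse. Control mice ate the diet without adenine and received PBS i.p. every week. CKD mice ate a 0.2% adenine diet from 8 to 16 weeks of age, which injures the tubules and causes chronic kidney disease, and also received PBS. CKD+Fe mice ate the same adenine diet and received iron dextran i.p. at 0.5 g/kg per week. No group carried a transgene or deletion, and no iron-treated mice without CKD were among the samples, so the iron comparison holds only within CKD.

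The endoplasmic reticulum (ER) folds secreted and membrane proteins, and unfolded protein there is sensed by ATF6, IRE1 and PERK. Cleaved ATF6 and the transcription factor XBP1, whose mRNA is spliced by IRE1, raise chaperones and degradation factors. PERK and the other eIF2alpha kinases slow translation while the translation of ATF4 rises. ATF4 with CHOP (encoded by Ddit3) drives genes of amino acid supply and stress signaling. In the kidney these responses are known from tubule injury, where secretory and transporting cells carry a heavy protein load.

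Short motifs in the promoters of these genes are the textbook sites through which the 2 responses act, and 4 of the stretches that hold one are shown so that a reader can see the letters. Windows from 250 bases before to 50 bases after the start of the gene were taken from RefSeq (GRCm38.p6), where 9 of the 10 genes had one. All but Atf6 were matched. The RefSeq start used for Atf3 lies far inside the interval that the expression table gives for this gene, so its window belongs to an internal transcript start. The stretches shown for Hspa5 and Asns also lie inside the intervals of these genes, but close to the edge where the gene begins. That of Herpud1 lies before its interval. The ER stress element (CCAAT, 9 bases, CCACG) stood in the Hspa5 window. The related ERSE-II (ATTGG, 1 base, CCACG) stood in the Herpud1 window. The amino acid response type element (CARE, TGATGNAA, bound by ATF4 dimers) stood in the windows of Asns, Atf3, Herpud1 and Trib3. Capitals mark the letters of the motif, and in the Atf3 and Herpud1 windows the CARE reads on the opposite strand.
Hspa5, chr2:34772010-34772058, plus strand: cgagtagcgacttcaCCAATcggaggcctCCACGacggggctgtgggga
Herpud1, chr8:94386302-94386402, plus strand: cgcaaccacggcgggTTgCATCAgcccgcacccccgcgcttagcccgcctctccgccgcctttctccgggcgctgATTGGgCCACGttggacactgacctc
Atf3, chr1:191183421-191183458, minus strand: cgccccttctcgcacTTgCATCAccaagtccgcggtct
Asns, chr6:7693210-7693247, minus strand: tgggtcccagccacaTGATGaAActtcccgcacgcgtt
Searched on both strands, the ER stress element was in 0.119% of all 32851 windows, ERSE-II in 0.0365% and CARE in 3.97%. The CARE of Trib3 lay 14 to 21 bases after the start. The XBP1 motif core TGACGTGG, found in 0.676% of windows, and the cyclic AMP element TGACGTCA, found in 1.79%, were in the windows of 0 of the 9 genes. A match is a description of the letters and not a measured binding site.

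Expression is given in FPKM, a count of fragments corrected for transcript length and for the mapped reads of the library, and differences as the log2 fold change of FPKM + 1, which understates the change of low genes such as Trib3 and Atf3. Most genes were higher in CKD on this scale, with a median of 0.50 over all genes tested, and the size factors of a median-of-ratios rescaling were 0.742 to 0.779 in control mice and 1.09 to 1.22 in CKD mice. Directions are therefore given both as deposited and after this rescaling, which centers most genes near 0. Control mouse 042301, CKD mouse 110310 and CKD+Fe mouse 042702 were known from earlier results of these data to lie apart from their group, and values without them are given where they differ. Because these mice were picked from the same data, a smaller p-value without them is a description and adds no support. Nephron and vessel markers were present in all groups, with 10 of them summing to 3950 to 4360 FPKM in control, 2940 to 4150 in CKD and 2520 to 4010 in CKD+Fe mice. Markers of single cell types differed more between groups: the sum of 11 proximal tubule markers was 5500 to 6860 FPKM in control, 775 to 1410 in CKD and 968 to 2220 in CKD+Fe mice, while 10 macrophage markers summed to 125 to 258, 1820 to 3830 and 1700 to 3810 FPKM. In whole tissue, fewer cells of a type and less RNA per cell cannot be told apart. The part of these cell markers in the results below was not tested.

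In control kidneys the levels of the 10 genes covered a wide range. Hspa5, which encodes the chaperone BiP, was highest at 263 ± 70.7 FPKM (SD, n = 4), followed by Herpud1 at 167 ± 33.7, Xbp1 at 121 ± 18.2, Atf4 at 73.2 ± 10.2 and Pdia4 at 47.8 ± 6.98. Ddit3 at 15.5 ± 6.09, Atf6 at 7.72 ± 1.58, Asns at 4.80 ± 3.00, Atf3 at 1.25 ± 0.527 and Trib3 at 0.746 ± 0.477 FPKM completed the order. Neighbours in this order overlapped between mice for Hspa5 and Herpud1, Herpud1 and Xbp1, Atf6 and Asns, and Atf3 and Trib3, while the other neighbours did not overlap. Among all genes tested, Hspa5 stood at percentile 97.1 of the control means and Trib3 at percentile 8.56. Atf3 moved from rank 9 and percentile 13.7 in control to rank 7 in both CKD groups, at percentile 53.6 without iron and 55.2 with it.

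**Figure D1:**
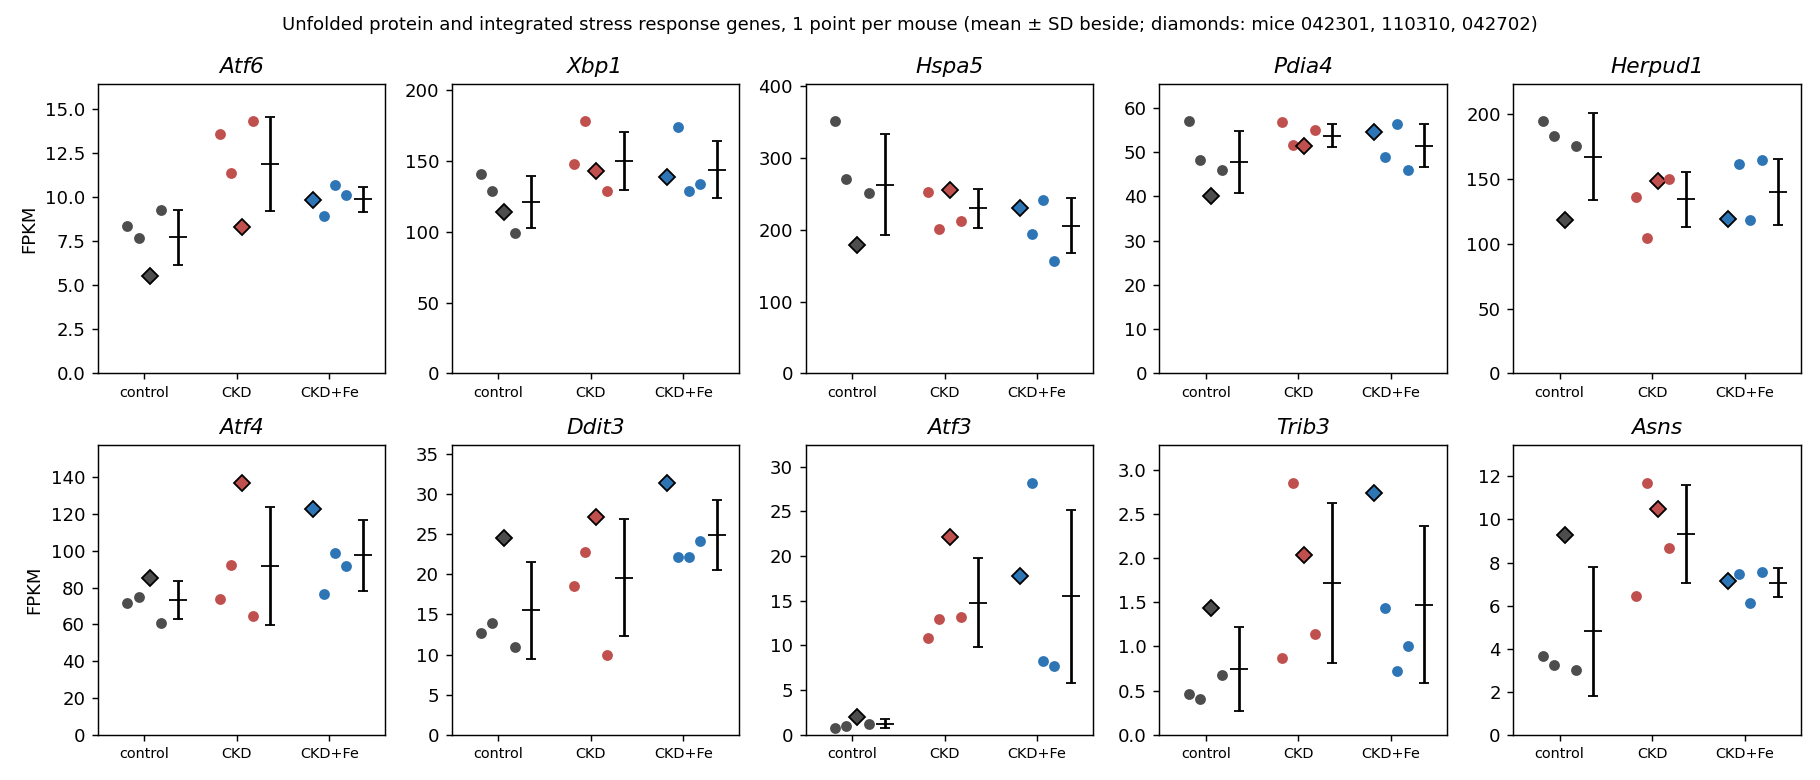
Expression of the 10 genes in FPKM on linear axes that start at 0, 1 point per mouse in control, CKD and CKD+Fe mice, with the mean ± SD (n = 4) beside the points and diamonds for mice 042301, 110310 and 042702. Atf3 is the gene whose control mice, at 0.783 to 1.99 FPKM, lie below every CKD mouse.

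The first comparison asked how the adenine diet changed these genes. Atf3, Asns and Atf6 rose in CKD against control mice and 0 of the 10 genes fell (limma, adjusted p under 0.05), where 54.6% of all genes tested were called higher and 13.3% lower. With 3 of 10 called higher, the count was below that background share. Atf3 was the 1 gene whose groups did not overlap, where 44.6% of all genes were higher and 10.4% lower without overlap. The median log2 fold change of the 10 genes was 0.30, against 0.50 over all genes, and 4 of the 10 lay above that median. After rescaling, 1 gene was higher (Atf3) and 3 were lower (Hspa5, Pdia4 and Herpud1), beside 27.2% and 31.0% of all genes, and the median of the 10 genes was -0.30 against -0.03. After quantile normalization, 2 genes were higher (Atf3 and Xbp1) and 0 lower, beside 3060 and 3363 of all genes. The median of the 10 genes was then 0.15 against -0.03, and 7 of the 10 lay above the median of all genes. Where the 10 genes stood against all genes therefore depended on the scaling.

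Atf3 (ENSMUSG00000026628, chromosome 1, 191170295 to 191218039) encodes a transcription factor of the ATF/CREB family that is induced by many stresses, including ISR signaling. Its expression was 0.783, 0.995, 1.99 and 1.22 FPKM in the control mice and 10.8, 13.0, 22.1 and 13.2 FPKM in the CKD mice. The CKD mice were all above the control mice, with a wide gap between 1.99 and 10.8 FPKM. Atf3 had a log2 fold change of 2.79 (standard error 0.34, 95% confidence interval 2.05 to 3.53, adjusted p = 1.4e-05), with an exact two-sided permutation p of 0.0286, the smallest that 4 mice against 4 allow. It was 2.36 after rescaling (adjusted p = 8.88e-05), 2.03 after quantile normalization (adjusted p = 0.000595), and 2.59 to 2.94 when each mouse was left out in turn. Atf3 is also an immediate early gene. All 16 immediate early genes tested besides it were called higher in CKD (14 after rescaling), beside 54.6% of all genes (27.2% after rescaling). The 18 immediate early genes listed, tested or not, summed to 109 to 168 FPKM in control and 444 to 910 FPKM in CKD mice. Their part in the Atf3 result was not tested.

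Atf6 (ENSMUSG00000026663, chromosome 1, 170704673 to 170867771) encodes the ER membrane sensor that is cleaved into a transcription factor. Its expression was 8.37, 7.70, 5.55 and 9.25 FPKM in control and 13.6, 11.4, 8.30 and 14.3 FPKM in CKD mice. The groups overlapped through CKD mouse 110310, which was below 2 of the control mice. Its log2 fold change of 0.56 (SE 0.18, adjusted p = 0.0127) was close to the median of all genes, and it was -0.003 after rescaling (95% confidence interval -0.38 to 0.37, adjusted p = 0.987) and -0.04 after quantile normalization (adjusted p = 0.866). Xbp1 (ENSMUSG00000020484, chromosome 11, 5520658 to 5525893) was at 141, 129, 114 and 99.4 FPKM in control and 148, 178, 143 and 129 FPKM in CKD mice. All but 1 of the CKD mice lay above the highest control mouse. The log2 fold change of Xbp1 did not pass the test as deposited (0.31, adjusted p = 0.0813) or after rescaling (-0.31, adjusted p = 0.109), and it was 0.56 (adjusted p = 0.0041) after quantile normalization. The value of a gene does not separate the spliced from the unspliced Xbp1 mRNA, so IRE1 activity was not measured. Plasma cells are rich in Xbp1. Their marker Igj was at 73.6 and 33.2 FPKM in CKD mice 021320 and 022301 but at 1.0 to 3.0 FPKM in CKD mice 110310 and 120102, against 2.80 to 6.12 FPKM in control mice. The sum of 7 plasma cell markers was 8.94 to 13.9 FPKM in control and 51.2 to 133 FPKM in CKD mice, but in mice 110310 and 120102 most of it was Sdc1 (44.5 and 49.4 FPKM), which epithelium also expresses. Of the other markers, Pou2af1 split the CKD mice as Igj did (0.509 and 0.362 against 0.0733 and 0.0407 FPKM). Mzb1 did not, at 2.63 and 1.28 against 1.54 and 1.22 FPKM, with 0.668 to 1.62 FPKM in control mice. Irf4 was higher in all CKD mice (0.811 to 1.25 FPKM) than in control mice (0.0931 to 0.217 FPKM). Prdm1 was also higher (0.684 to 1.1 against 0.312 to 0.646 FPKM). Tnfrsf17 was at most 0.345 FPKM in CKD mice. The part of plasma cells in the Xbp1 values was not tested.

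None of the genes for ER folding and degradation among the 10 was called higher in CKD. Hspa5 (ENSMUSG00000026864, chromosome 2, 34771969 to 34777547), whose product BiP binds unfolded protein and holds the sensors inactive, was at 351, 271, 179 and 251 FPKM in control and 253, 201, 255 and 212 FPKM in CKD mice. The CKD mice lay within the range of the control mice. Against control the log2 fold change was -0.16 as deposited (95% confidence interval -0.58 to 0.27, adjusted p = 0.493), -0.78 after rescaling (-1.23 to -0.32, adjusted p = 0.00649) and 0.22 after quantile normalization (adjusted p = 0.397), so its direction depended on the scaling. Pdia4 (ENSMUSG00000025823, chromosome 6, 47796140 to 47813430), a disulfide isomerase of the ER, was at 56.9, 48.3, 40.1 and 46.0 FPKM in control and 56.7, 51.6, 51.4 and 55.0 FPKM in CKD mice. Its log2 fold change was 0.17 (adjusted p = 0.23) as deposited, 0.13 (adjusted p = 0.43) after quantile normalization and -0.44 (adjusted p = 0.0113) after rescaling, where all CKD mice (42.1 to 48.4) were below all control mice (51.4 to 76.7 rescaled FPKM).

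Herpud1 (ENSMUSG00000031770, chromosome 8, 94386437 to 94395377) encodes an ER membrane protein of ER-associated degradation, which removes misfolded proteins to the proteasome. It was at 194, 183, 118 and 175 FPKM in control and 136, 104, 148 and 150 FPKM in CKD mice. Control mouse 042301 was the only control mouse within the CKD range. Herpud1 had a log2 fold change of -0.30 with all mice (adjusted p = 0.16), -0.46 without mouse 042301 (adjusted p = 0.0253) and -0.51 without all 3 mice that lay apart (adjusted p = 0.0142). It was -0.92 after rescaling (adjusted p = 0.00206), with 84.7 to 136 rescaled FPKM in CKD against 152 to 261 in control mice, and 0.004 after quantile normalization (adjusted p = 0.988).

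Among the ISR factors other than Atf3, Atf4 (ENSMUSG00000042406, chromosome 15, 80255183 to 80257540), the central factor of the response and mainly controlled by translation, was at 71.8, 74.7, 85.5 and 60.7 FPKM in control and 73.7, 92.6, 137 and 64.7 FPKM in CKD mice. The groups overlapped, and only mouse 110310 was far above the control range. The log2 fold change of Atf4 did not pass the test as deposited (0.28, adjusted p = 0.263), after quantile normalization (0.36, adjusted p = 0.134) or after rescaling (-0.34, adjusted p = 0.195). Ddit3 (ENSMUSG00000025408, chromosome 10, 127290773 to 127296288), which encodes the pro-apoptotic factor CHOP, was at 12.7, 13.9, 24.5 and 11.0 FPKM in control and 18.6, 22.8, 27.1 and 9.89 FPKM in CKD mice. The lowest value of these 8 mice was that of CKD mouse 120102, so the ranges crossed. Ddit3 had a log2 fold change of 0.30 as deposited (95% confidence interval -0.31 to 0.90, adjusted p = 0.357), of -0.28 after rescaling (adjusted p = 0.394) and of -0.15 after quantile normalization (adjusted p = 0.684). Without mouse 120102 it was 0.58 (adjusted p = 0.0482).

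Trib3 (ENSMUSG00000032715, chromosome 2, 152337421 to 152344032) encodes a pseudokinase induced by ATF4 and CHOP that dampens them in return. It was at 0.460, 0.411, 1.44 and 0.674 FPKM in control and 0.865, 2.85, 2.03 and 1.14 FPKM in CKD mice. Without control mouse 042301, all CKD mice would lie above the control mice. Its log2 fold change was 0.62 with all mice (adjusted p = 0.061), 0.79 without mouse 042301 (adjusted p = 0.0247) and 0.78 without CKD mouse 021320 (adjusted p = 0.0292). It was 0.32 after rescaling (adjusted p = 0.318) and -0.17 after quantile normalization (adjusted p = 0.623).

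Asns (ENSMUSG00000029752, chromosome 6, 7675168 to 7693254) encodes asparagine synthetase, a target of ATF4. It was at 3.67, 3.24, 9.27 and 3.00 FPKM in control and 6.43, 11.7, 10.5 and 8.66 FPKM in CKD mice. Again mouse 042301 was the only control mouse that overlapped the CKD mice. Asns had a log2 fold change of 0.92 (SE 0.26, adjusted p = 0.00713), and of 1.17 without the 3 mice that lay apart (adjusted p = 0.000163). It no longer passed the test after rescaling (0.40, 95% confidence interval -0.17 to 0.97, adjusted p = 0.212) or after quantile normalization (0.18, adjusted p = 0.576).

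**Figure D2:**
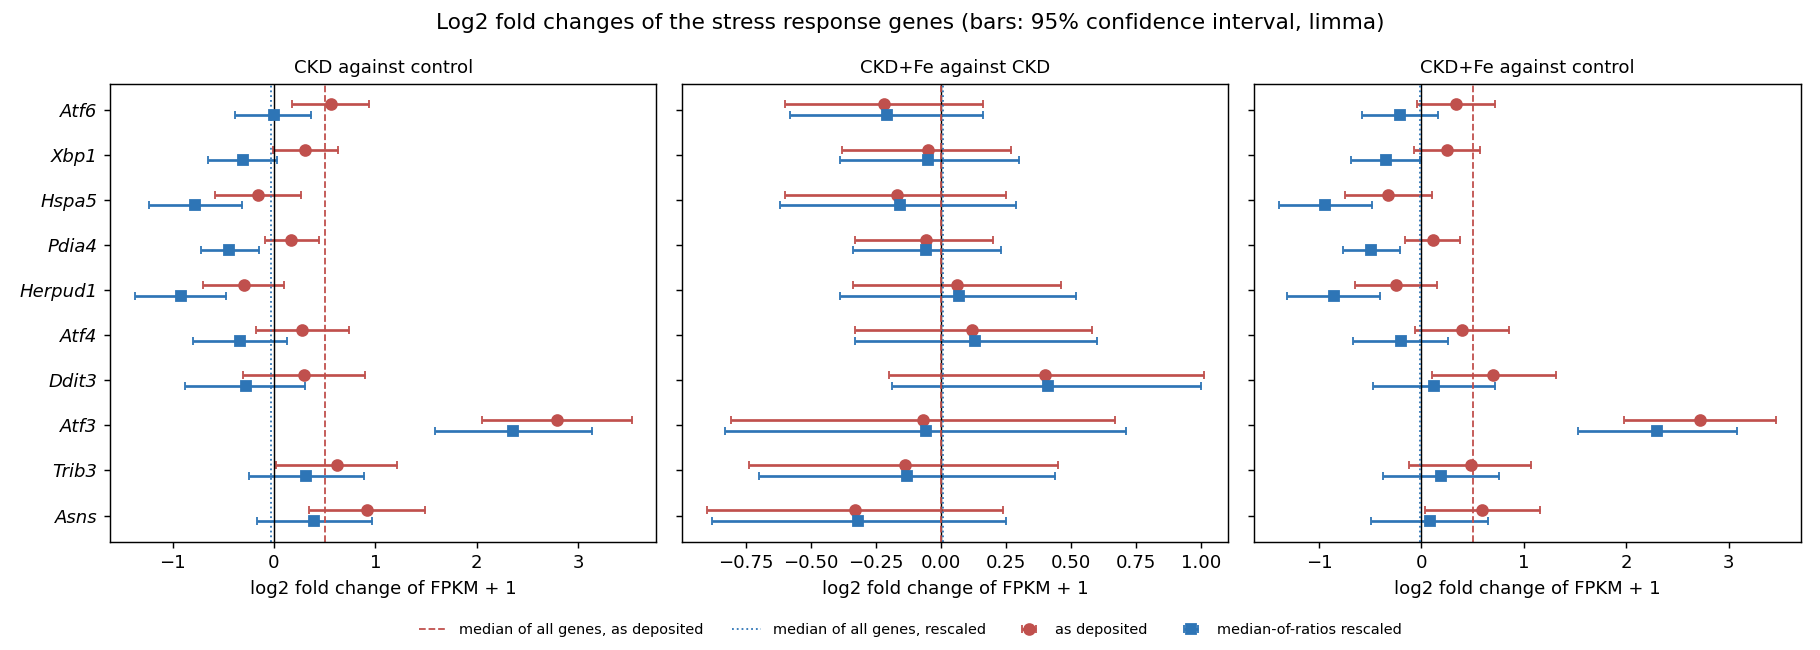
Log2 fold change (of FPKM + 1) of each gene in the 3 comparisons, as deposited (circles) and after median-of-ratios rescaling (squares), with 95% confidence intervals; the vertical lines mark 0 and the median of all genes tested, and the x axes differ between panels. Atf3 lies at 2.79 in CKD and 2.72 in CKD+Fe against control mice, and the intervals of all 10 genes span 0 in CKD+Fe against CKD mice.

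Ratios of genes within a mouse do not depend on the scaling of the mouse. Atf3 was 0.547 ± 0.392% of Hspa5 in control mice, 6.41 ± 1.80% in CKD and 7.65 ± 4.92% in CKD+Fe mice (SD, n = 4), and the highest control mouse (1.11%) was below the lowest CKD mouse (4.27%). Pdia4 was 18.7 ± 2.63%, 23.5 ± 2.74% and 25.3 ± 2.68% of Hspa5, and Xbp1 was 47.8 ± 11.2%, 66.0 ± 14.9% and 72.1 ± 17.9% of Hspa5 in the same order. Both mean ratios were higher in the CKD groups, and the ranges of control and CKD mice overlapped for both. In CKD+Fe mice the range of Pdia4 to Hspa5 (23.3 to 29.1%) did not overlap that of control mice (16.2 to 22.4%), while that of Xbp1 to Hspa5 did. The range of Atf6 to Hspa5 did not overlap either (4.27 to 6.4% in CKD+Fe against 2.39 to 3.69% in control mice). These ratios share Hspa5 as denominator, and how often ratios of other genes stand apart was not computed. Ddit3 was 20.8 ± 5.25% of Atf4 in control mice, 21.3 ± 4.68% after adenine alone and 25.8 ± 2.74% with iron. Asns was 6.31 ± 3.04%, 10.6 ± 2.81% and 7.49 ± 1.85% of Atf4, with overlap between all groups.

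The second comparison asked whether iron dextran changed these genes within CKD. None of the 10 genes passed the test in CKD+Fe against CKD mice with limma, and 0 of them had an unadjusted p under 0.05. Over all genes tested, 1 gene was called higher (0.00761%) and 0 lower (0.0%), and 790 had an unadjusted p under 0.05. None of the 10 had groups that did not overlap, as 1.35% of all genes did upward and 1.08% downward. The log2 fold changes ran from -0.33 for Asns to 0.40 for Ddit3, with adjusted p of 0.95 to 0.996. The 95% confidence interval was -0.20 to 1.01 for Ddit3, -0.90 to 0.24 for Asns, -0.81 to 0.67 for Atf3 and -0.33 to 0.20 for Pdia4.

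Atf3 in CKD+Fe mice was 17.8, 28.2, 8.29 and 7.71 FPKM, with a log2 fold change of -0.07 against CKD mice (adjusted p = 0.996). These 4 values spanned a wider range than those of the CKD mice and lay both above and below them. The highest, of mouse 062910, was in the mouse with the highest sum of immediate early genes (1060 FPKM, against 367 to 562 in the other CKD+Fe mice). In the CKD group the highest sum (910 FPKM) was in mouse 120102, with Atf3 at 13.2 FPKM, and the highest Atf3 (22.1 FPKM) in mouse 110310, with a sum of 661 FPKM. Ddit3 was 31.4, 22.2, 22.1 and 24.2 FPKM, and Atf6 was 9.86, 8.96, 10.7 and 10.1 FPKM in CKD+Fe mice. Asns was 7.13, 7.49, 6.12 and 7.55 FPKM. Iron-treated mice had a smaller coefficient of variation than untreated CKD mice for Ddit3 (17.7% against 37.4%), Atf6 (7.10% against 22.5%), Asns (9.36% against 24.6%) and Atf4 (19.7% against 34.8%). It was larger for Atf3 (62.3% against 33.8%), Trib3 (60.2% against 52.4%), Hspa5 (18.5% against 11.9%), Herpud1 (18.1% against 15.9%), Xbp1 (14.1% against 13.6%) and Pdia4 (9.43% against 4.89%). The differences in spread were not tested.

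For the remaining genes in CKD+Fe mice, Hspa5 was 231, 194, 241 and 157 FPKM, a log2 fold change of -0.17 from CKD mice. Pdia4 was 54.6, 48.9, 56.3 and 45.9 FPKM (-0.06), and Herpud1 was 119, 161, 118 and 164 FPKM (0.06). All of these overlapped the CKD mice. Xbp1 was 139, 174, 129 and 134 FPKM (-0.05), Atf4 was 123, 76.6, 99.1 and 91.9 FPKM (0.12), and Trib3 was 2.74, 1.43, 0.727 and 1.01 FPKM (-0.14). These 3 also overlapped the CKD mice. Between the same groups, marker sums overlapped for proximal tubule (968 to 2220 against 775 to 1410 FPKM) and for tubule injury (8900 to 16000 against 12200 to 21800 FPKM).

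The third comparison, CKD+Fe against control, shares its mice with the other comparisons, so its values are not independent of them. Atf3 (2.72, 95% confidence interval 1.98 to 3.46, adjusted p = 2.4e-05) and Ddit3 (0.70, 95% confidence interval 0.10 to 1.31, adjusted p = 0.0412) were called higher and 0 genes lower, beside 54.4% and 11.0% of all genes. Atf3 was the 1 gene without overlap between groups, beside 50.3% of all genes upward and 9.82% downward. The call of Ddit3 was lost in 7 of 8 fits that left out 1 mouse, kept only without control mouse 042301 (0.93, adjusted p = 0.00781), and was not made after rescaling (0.12, adjusted p = 0.729) or quantile normalization (0.31, adjusted p = 0.391). Xbp1 was at 0.25 (adjusted p = 0.149) as deposited, 0.43 (adjusted p = 0.0209) after quantile normalization and -0.35 (adjusted p = 0.0723) after rescaling. Asns was 0.59 with all mice (adjusted p = 0.0621) and 0.91 without mouse 042301 (adjusted p = 0.000779). Without the same mouse Hspa5 was -0.50 (adjusted p = 0.0234) and Herpud1 -0.40 (adjusted p = 0.0465). After rescaling, 1 gene was higher (Atf3) and Hspa5 (-0.94, adjusted p = 0.0021), Pdia4 (-0.49, adjusted p = 0.00616) and Herpud1 (-0.85, adjusted p = 0.00388) were lower, beside 26.1% and 29.3% of all genes. As deposited these 3 genes were at -0.33, 0.11 and -0.25 and did not pass the test, and after quantile normalization they were at -0.04, 0.01 and -0.02.

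The 3 mice that lay apart were highest or lowest of their group in several of these genes, which was not particular to them. In control mouse 042301, Asns was 2.81, Trib3 2.80, Atf3 1.99, Ddit3 1.95 and Atf4 1.24 times the mean of the other 3 control mice, each above all of them. In the same mouse Hspa5 was 0.615, Herpud1 0.643, Atf6 0.658 and Pdia4 0.795 times that mean, each below all of them, and Xbp1 was within their range. In CKD mouse 110310, Atf3 (1.79 times), Atf4 (1.77) and Ddit3 (1.58) were above the other 3 CKD mice and Atf6 (0.634) was below them. In CKD+Fe mouse 042702, Trib3 (2.59), Atf4 (1.38) and Ddit3 (1.38) were above the other 3. More of the genes were at an edge of this group in CKD+Fe mouse 111710. There Hspa5 (241 FPKM), Pdia4 (56.3) and Atf6 (10.7) were above the other 3 mice. Xbp1 (129 FPKM), Herpud1 (118), Ddit3 (22.1), Trib3 (0.727) and Asns (6.12) were below them in mouse 111710. Mouse 042301 also had the highest sum of papilla and urothelium markers (147 FPKM, against 1.89 to 55.3 in the other control mice), while mouse 110310 had 6.64 FPKM, the lowest of the CKD mice. The part of tissue sampling in these deviations was not tested.

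**Figure D3:**
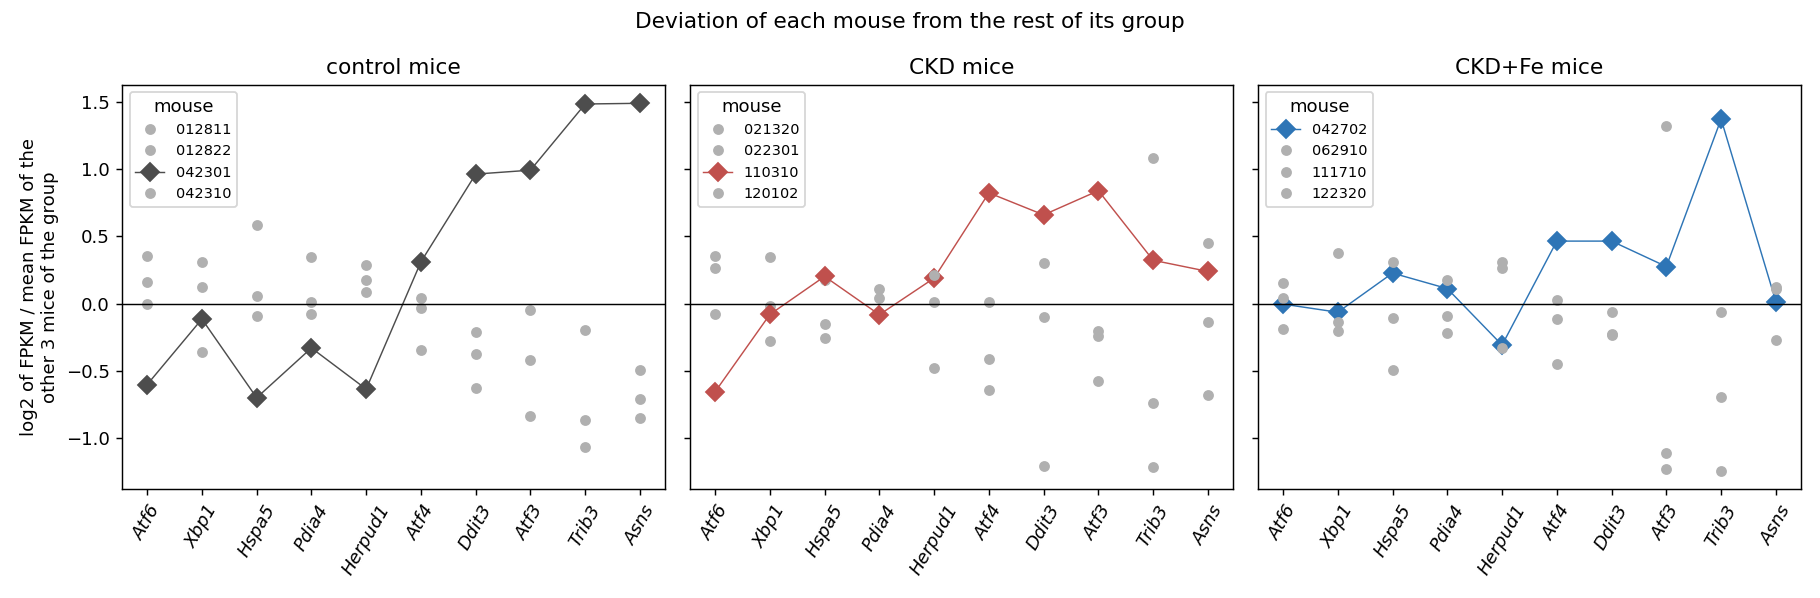
Log2 of the ratio of FPKM in each mouse to the mean of the other 3 mice of its group, by gene, with 1 panel per group; the connected diamonds are mice 042301, 110310 and 042702 and the grey points the other mice. In mouse 042301 the ER genes lie below 0 and the ISR genes above it.

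Deviations from the group mean were compared between genes over the 12 mice, which share the scaling of each library, as a description. Hspa5 and Pdia4 varied together (Pearson r = 0.92 over 12 mice, 0.96 over the 9 mice without those that lay apart), as did Atf4 and Ddit3 (0.82 and 0.75) and Trib3 and Asns (0.69 and 0.84). Atf6 varied against Ddit3 (-0.82 and -0.67), Asns (-0.76 and -0.65) and Atf4 (-0.74 and -0.44). Of the 45 pairs 25 were positive over 12 mice and 22 over 9, so the 10 genes did not vary as 1 block. Among all genes tested, the closest to Hspa5 were Hyou1, another ER chaperone (0.931), Tlr12 (0.927) and Pdia4 (0.917), and the closest to Pdia4 were Hspa5, Dnajc1 (0.904) and Mcfd2 (0.894).

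Among the closest to Atf6 were Slmap (0.989) and Lrrc58 (0.986), and the closest to Xbp1 were E2f2 (0.881), Cdc6 (0.875) and Tsc22d1 (0.843), all over 12 mice. Herpud1 was closest to Slc25a34 (0.912), Rab38 (0.895) and Treh (0.891). The closest to Atf4 were Rrad (0.971), Mepce (0.966) and Twf2 (0.965), to Ddit3 Ifnar2 (0.970), Egfl7 (0.970) and Med11 (0.967), and to Atf3 Lmnb1 (0.953), Uhrf1 (0.945) and Pdlim3 (0.923). Trib3 was closest to Tmem161a (0.953), Cracr2b (0.942) and Lsp1 (0.941), and Asns to Efna4 (0.979), Mrpl33 (0.972) and Myl12b (0.963). These genes are named for their pattern only.

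**Figure D4:**
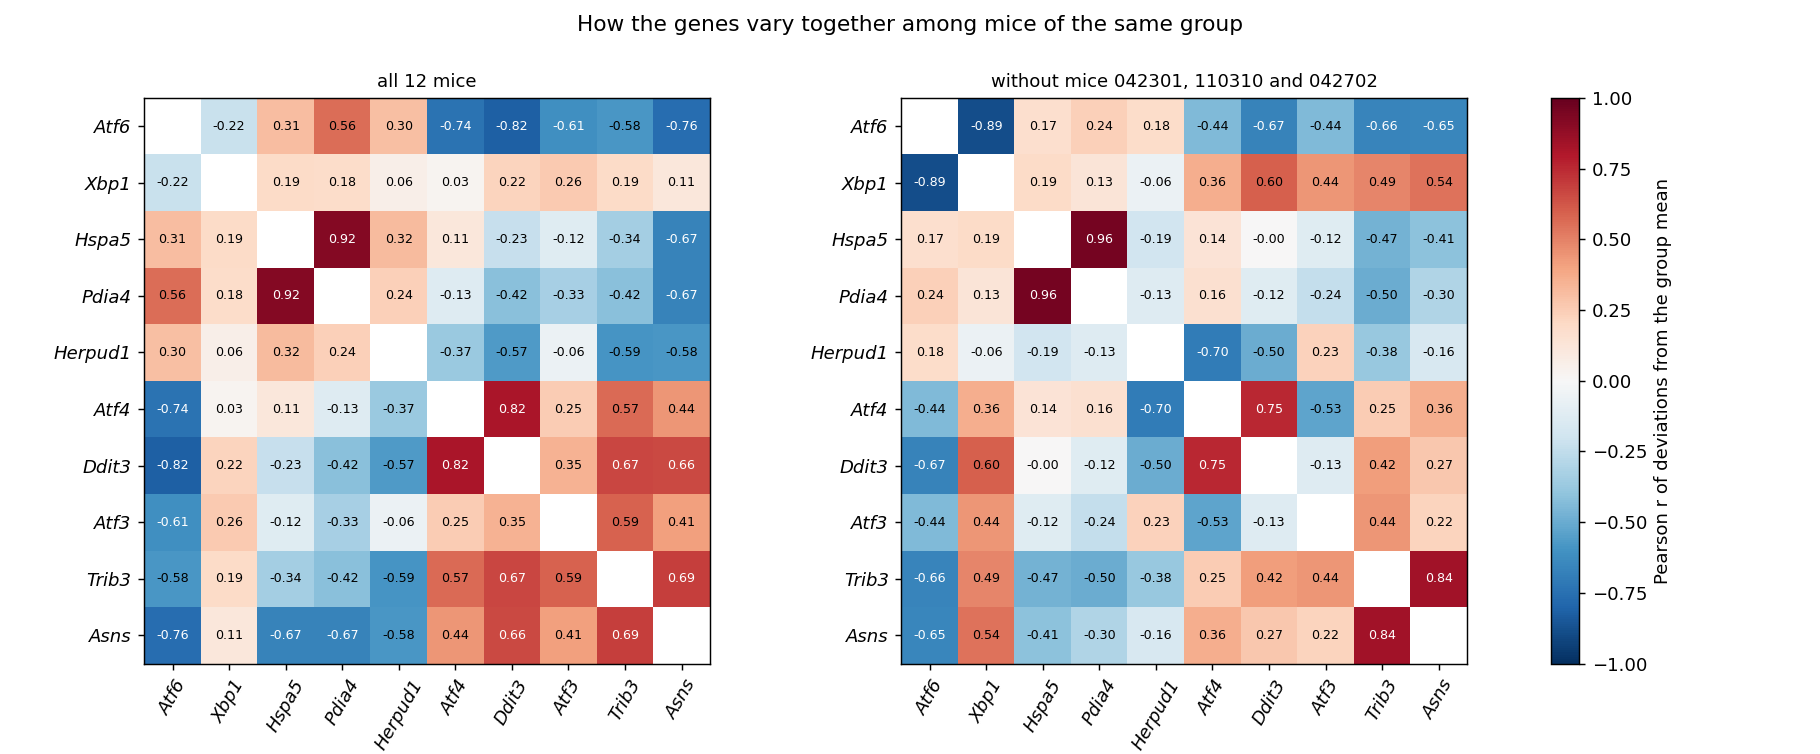
Pearson r between the deviations of each pair of genes from the group mean of log2(FPKM + 1), over all 12 mice on the left and over 9 mice without mice 042301, 110310 and 042702 on the right. Hspa5 and Pdia4 have r of 0.92 and 0.96, and all pairs of Atf6 with Atf4, Ddit3, Atf3, Trib3 and Asns are negative on both sides.

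The other genes of the pathway were followed in 8 lists written from general knowledge. Of 98 genes listed, 97 were matched and 92 tested, and in CKD against control mice 32 were called higher and 8 lower (12 and 48 after rescaling), with a median log2 fold change of 0.18 against 0.50 for all genes. Beside them, 54.6% of all genes tested were called higher and 13.3% lower, and 27.2% and 31.0% after rescaling, and the counts of each list are to be read against these shares. Without control mouse 012811 the lower calls were 4. The sizes of change given for these other genes are log2 fold changes of FPKM + 1. Of 13 ISR transcription factors and stress effectors tested, 11 were called higher and 0 lower (median 1.22), and after rescaling 5 higher and 1 lower (median 0.73). Ddit4, an inhibitor of mTORC1, rose from 10.2 ± 4.24 to 41.5 ± 7.45 FPKM (1.98, adjusted p = 2.45e-05). Nupr1, a stress-induced chromatin protein, rose by 1.89 (adjusted p = 0.00418), and Stc2, a secreted glycoprotein, by 1.65 (adjusted p = 0.000156). Rescaled, these 3 stood at 1.40, 1.29 and 1.26.

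Of 16 ER chaperones and folding enzymes, 1 was called higher and 2 lower (median -0.03), and after rescaling 1 higher and 10 lower (median -0.64). Dnajc10, a disulfide reductase, rose from 14.3 ± 1.35 to 31.5 ± 7.04 FPKM (1.06, adjusted p = 7.35e-05), while Dnajb11, a cochaperone of BiP, fell by 0.47 (adjusted p = 0.014) and P4hb, a disulfide isomerase, fell from 347 ± 20.8 to 259 ± 20.2 FPKM (-0.42, adjusted p = 0.00669). These 2 also fell after rescaling (-1.09 and -1.04). Of 15 genes of ER-associated degradation, 2 were called higher and 2 lower (median -0.02; rescaled 1 and 12, median -0.58). Fam129a, placed in this list although its product is known for stress signaling to eIF2alpha rather than for degradation, rose from 3.25 ± 0.224 to 17.4 ± 2.54 FPKM (2.11, adjusted p = 5.34e-08) and Ube2j1, a ubiquitin-conjugating enzyme, by 0.62 (adjusted p = 0.000355), while Derl2 and Edem1, which help move misfolded proteins out of the ER, fell by 0.62 and 0.37. After rescaling Fam129a was 1.58 and Ube2j1 0.03 (adjusted p = 0.856).

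Of the 5 sensors and processing enzymes, 4 were called higher and 0 lower (median 0.68), but 0 in either direction after rescaling (median 0.16). Eif2ak3, which encodes PERK, rose by 0.82 (adjusted p = 9.73e-05), Ern1, which encodes IRE1alpha, by 0.79 (adjusted p = 0.00324) and Mbtps2, a protease that cleaves ATF6, by 0.68 (adjusted p = 0.022). Among 12 genes of eIF2alpha kinases, phosphatases and eIF2B, 3 were higher and 1 lower (rescaled 2 and 8). Eif2ak2, the kinase PKR activated by double-stranded RNA, rose by 1.53 (rescaled 1.04) and Eif2ak4, the amino acid sensor GCN2, by 0.84 (rescaled 0.36, adjusted p = 0.017), while Eif2ak1, the heme-regulated kinase, fell by 0.26 (rescaled -0.86).

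Of 10 secretory targets of XBP1, 4 were called higher and 1 lower (rescaled 0 and 6). Sec61a1, of the ER translocon, rose by 0.62, Txndc5 by 0.58 and Sec24d, of the COPII coat, by 0.49, and Serp1 fell by 0.38. Sec61a1, Txndc5 and Sec24d were at 0.01, -0.03 and -0.09 after rescaling. Of 11 tRNA synthetases, 4 were called higher and 0 lower (rescaled 0 and 6), led by Tars (0.54), Iars (0.53) and Eprs (0.43). Of 11 amino acid supply genes besides Asns, 4 were higher and 2 lower (rescaled 3 and 5). The glutamine transporter gene Slc38a2 rose from 16.6 ± 1.53 to 54.9 ± 5.68 FPKM (1.67, adjusted p = 5.29e-07), Aldh18a1, of proline synthesis, by 1.70 and Slc7a11, the cystine transporter, by 1.48, from 0.0212 ± 0.0119 FPKM. Shmt2, the mitochondrial serine hydroxymethyltransferase, fell from 122 ± 18.3 to 30.9 ± 7.56 FPKM (-1.96, adjusted p = 6.82e-07) and Cth, of cysteine synthesis, fell by 1.36 (adjusted p = 0.000121). Proximal tubule marker sums were lower in the same mice, and their part in these values was not tested.

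In CKD+Fe against CKD mice, 0 of the 92 genes were called in either direction, and 6 had an unadjusted p under 0.05. The lowest p were those of Fam129a (-0.49, adjusted p = 0.4), Shmt2 (0.53, adjusted p = 0.502) and Derl3 (0.45, adjusted p = 0.782). With array quality weights, 1 gene, Fam129a, was called lower. Against control, CKD+Fe mice had 29 of the 92 genes called higher and 11 lower (12 and 45 after rescaling), with a median of 0.17, beside 54.4% and 11.0% of all genes (26.1% and 29.3% after rescaling).

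**Figure D5:**
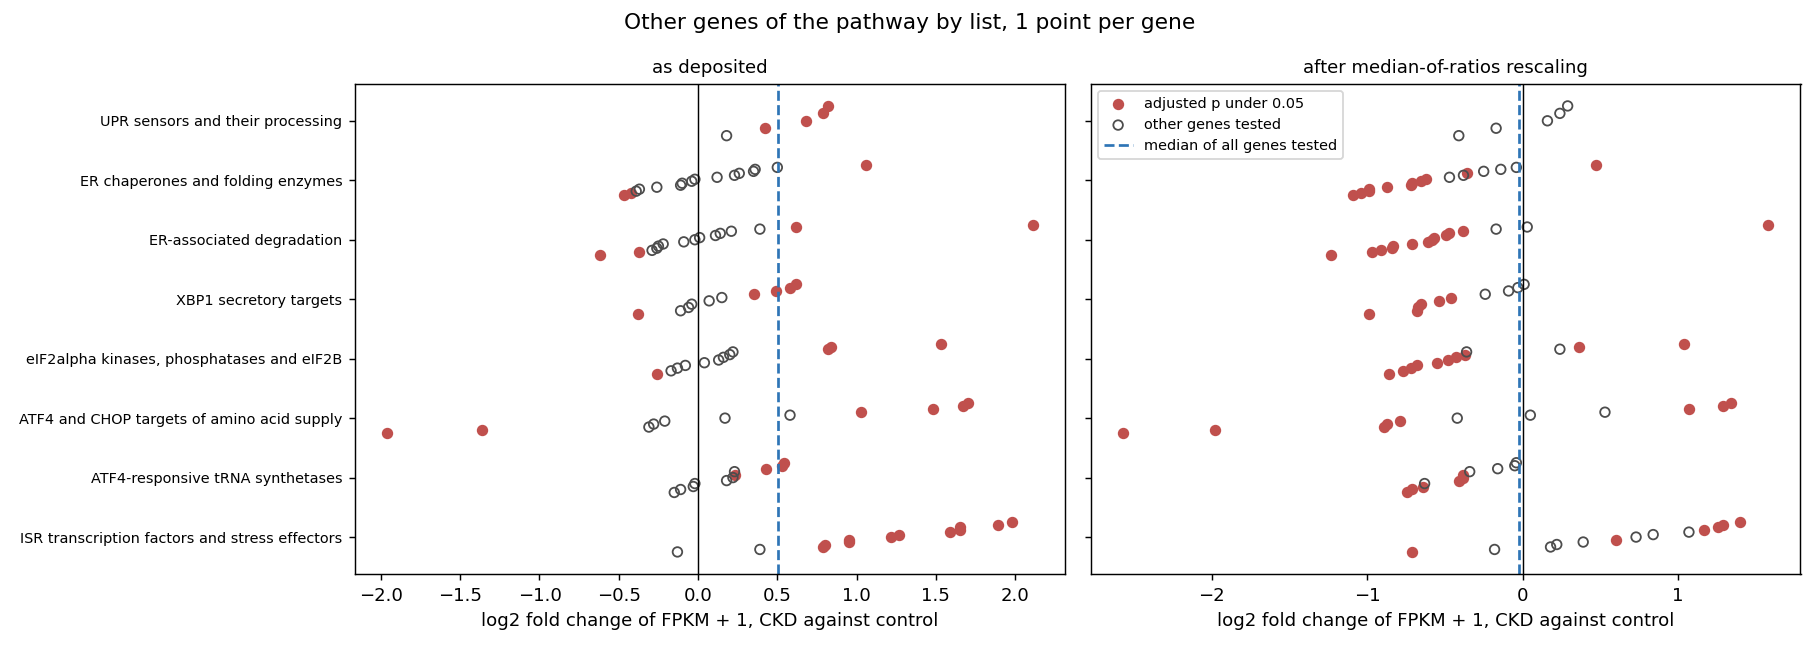
Fold changes between CKD and control mice, as log2 of FPKM + 1, for the 92 other pathway genes tested, by list, as deposited on the left and after median-of-ratios rescaling on the right; filled points have an adjusted p under 0.05 and the dashed line is the median of all genes tested. The 13 ISR factors and effectors have a median of 1.22 as deposited and 0.73 after rescaling, and the 16 chaperones -0.03 and -0.64.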

How the data were processed

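The authors deposited FPKM values, 1 per gene and mouse, from stranded mRNA libraries of whole kidney (single-end reads, STAR 2.5.2, bcl2fastq 2.19 and Cufflinks 2.1.1 on GRCm38 per the submitters' processing notes), and tested read counts with DESeq2. Counts were not used here, depth in reads is unknown and no counting error can be given. Relative depth, from the smallest steps of low FPKM, was 0.678 to 1.0. The 30 failed estimates in 17 genes were treated as missing, and none concerned the 10 genes.

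A pseudocount of 1 was added before taking log2, and limma 3.58.1 (R 4.3.3, variance trend) was fitted once to all 12 mice over 13148 genes, those reaching 1 FPKM in 4 or more of the mice. Two-sided p-values were adjusted over these genes (Benjamini-Hochberg, threshold 0.05). They set the difference between groups against the spread between mice of the same group, estimated from all 12 mice. Single genes had an exact permutation test over all arrangements of 4 mice against 4. On simulated data for CKD against control (13132 genes fitted), 97.1% of simulated 4-fold changes (99 of 102) and 72.4% of 2-fold ones (71 of 98) were recovered. The changed genes were few, went up or down, and were drawn from genes above a low level in control mice. The shift of most genes seen in the data was not simulated. No change was simulated for CKD+Fe against CKD, so recovery there is unknown. Alternatives were median-of-ratios rescaling, quantile normalization, other pseudocounts, filters, weights and thresholds, and mice left out. Named pathway genes were the called genes with the largest change, at most 3 higher and 3 lower per list, and for iron the 3 lowest p; the 3 closest genes of each member were those with the highest r, of which 1 is not reported here. The members, gene lists and mice left out were chosen with earlier results of these data known. Slc7a5 was not matched, and Srp54a, Pycr1, Slc7a3, Chac1 and Fgf21 were below the filter. Of the marker lists not described above, 9 of 9 fibroblast, 9 of 9 tubule injury and 2 of 4 plasma cell genes tested were called higher in CKD against control mice, 1 of 6 thick ascending limb genes higher and 2 lower, and 0 of 8 papilla and urothelium genes either way.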

Additional observations from a re-analysis of the deposited data

Results flagged for a closer look

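Asns in the control mice had 1 mouse far from the others. Control mouse 042301 was at 9.27 FPKM and the other 3 at 3.00 to 3.67 FPKM, so that the gap was 0.893 of the range of the group, above Dixon's 95% critical value. Of 30 groups of mice and genes tested in this way 1 was set apart, and chance sets apart about 1 in 20.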

How the results depend on the processing

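The log2 fold changes of the 10 genes in the 3 comparisons kept their direction and their side of the threshold in 453 recomputed values, and were reversed in 31, some of which also changed side. Of those not reversed, 41 passed the threshold only in the alternative and 12 only in the reported fit. Of the 41, 15 came from the looser threshold of 0.5, where the estimates were unchanged. Apart from scalings and mice left out, the cause was not tested. Members called higher and lower in CKD (3 and 0 reported) were 1 and 3 after rescaling, 8 and 2 at an adjusted p under 0.5, lower 1 with array quality weights, 1 without the 3 mice that lay apart, and 0 to 1 with 1 mouse left out. In CKD+Fe against control (2 and 0 reported) they were 1 and 3 after rescaling, 5 and 2 with weights, 8 and 2 at 0.5, higher 1 without a filter, lower 1 without the 3 mice, and higher 1 to 3 and lower 0 to 2 with 1 mouse left out. Other pathway genes in CKD (32 higher and 8 lower reported) were 12 and 48 after rescaling, 14 and 17 after quantile normalization, 51 and 20 at 0.5, lower 17 with weights, 16 without the 3 mice and 4 (without control mouse 012811) to 10 with 1 mouse left out. Against control, CKD+Fe (29 and 11) had 12 and 45 after rescaling, 12 and 21 after quantile normalization, 48 and 23 at 0.5 and lower 20 with weights. In CKD+Fe against CKD 1 pathway gene was lower with weights and 1 at 0.5.

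Reversed in CKD were, after rescaling, Atf6 (-0.003), Xbp1 (-0.309), Pdia4 (-0.436), Atf4 (-0.337) and Ddit3 (-0.284), and after quantile normalization Atf6 (-0.039), Hspa5 (0.221), Herpud1 (0.004), Ddit3 (-0.148) and Trib3 (-0.17). In CKD+Fe against control they were, after rescaling, Atf6 (-0.211), Xbp1 (-0.354), Pdia4 (-0.491) and Atf4 (-0.203), after quantile normalization Atf6 (-0.294), Trib3 (-0.313) and Asns (-0.147), and Pdia4 with weights (-0.007) and without the 3 mice (below 0 but rounding to -0.0). In CKD+Fe against CKD, Herpud1 was -0.021 after quantile normalization and Atf3 0.003 without the 3 mice; with 1 mouse left out, values ran from -0.148 to 0.031 for Xbp1, -0.06 to 0.136 for Herpud1, -0.022 to 0.333 for Atf4, -0.407 to 0.175 for Atf3 and -0.361 to 0.044 for Trib3. Trib3 was removed by a filter at a mean of 5 FPKM. No paired analysis was possible because the groups share no mouse numbers. Read counts were not used, so no counting limit is given for low genes such as Trib3.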
